A study of Homo sapiens with 8 samples.

Results

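The genes described here are 9 genes of the NRF2 antioxidant response, measured by RNA sequencing in LNCaP, an established line from a human prostate carcinoma metastasis. They were taken from the count table by gene symbol: NFE2L2, KEAP1, NQO1, HMOX1, GCLC, GCLM, TXNRD1, SRXN1 and OSGIN1. The rule that picks them uses no values, but the set was chosen with earlier results of these data known. All 9 of 36474 genes in the table were found once each, and all 9 were among the 21071 genes with enough counts to be tested. Every group shares the same line. The methods describe starvation in medium lacking serum and calcium, with its length given only as a range. Recombinant human asporin (ASPN, a protein of the extracellular matrix) was then given at 100 ng/mL. The groups are 2 libraries at 0 h, 3 at 12 h and 3 at 24 h, and the titles of the 0 h libraries name ASPN as well. No library kept for 12 or 24 h without ASPN was analysed here, so ASPN and time in the medium cannot be told apart. The 0 h libraries are replicate 1 and a library whose number matches no 0 h title, called the unnumbered library below. The titles call the replicates biological and the methods describe wells plated in triplicate, without saying whether the cells came from separate cultures, so the p-values measure the spread between these libraries.

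NRF2, the protein made from NFE2L2, is a transcription factor that is kept low by KEAP1, an adaptor that presents it to a ubiquitin ligase for degradation. When reactive cysteines of KEAP1 are modified by oxidants or electrophiles, NRF2 escapes degradation, enters the nucleus with a small MAF partner and binds antioxidant response elements near its target genes. The targets make glutathione, reduce thioredoxin, break down heme and detoxify quinones, and in prostate epithelium the pathway is known for limiting oxidative damage. NRF2 is controlled largely at the level of the protein, which transcript counts do not measure.

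The promoter windows that hold the core of the antioxidant response element are shown first. The windows come from the RefSeq promoter table for GRCh38.p14, which covers 250 bases before to 50 bases after a RefSeq start. Of the 9 genes 8 had an entry, of which the first was used, and HMOX1 had none. These starts can differ from the GENCODE gene starts given with each gene below. Both strands were searched for TGACNNNGC, whose first letters it shares with the AP-1 motif TGACTCA. This core was in 13.3% of all 35116 promoter windows of that length. GCLM held 1 match and TXNRD1 held 2. The match in GCLM starts 34 bases before the RefSeq start, while the GENCODE start, chr1:93909456, lies within the stretch printed below. This match is on the strand opposite to the gene, where it reads TGACTAAGC. There the core is followed by an A, a longer form that 3.18% of the windows held. In TXNRD1 the upstream match lies on the gene's own strand, 99 bases before the start, and the other lies on the opposite strand, 8 bases before it. Neither of them is the longer form. The sequences are printed 5′ to 3′ on the strand of the gene, with the match in capitals.
GCLM (GRCh38, chr1:93909436-93909484, minus strand): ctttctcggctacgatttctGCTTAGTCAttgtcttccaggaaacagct
TXNRD1 upstream (GRCh38, chr12:104215660-104215708, plus strand): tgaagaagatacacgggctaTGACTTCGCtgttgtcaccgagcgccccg
TXNRD1 at the start (GRCh38, chr12:104215751-104215779, plus strand): cctccgccaggcgtccttcgGCTCCGTCA
The windows of NFE2L2, KEAP1, NQO1, GCLC, SRXN1 and OSGIN1 held 0 matches, which says only that these letters are not in those 300 bases. For NFE2L2 (chr2:177264082-177264381), GCLC (chr6:53545052-53545351) and OSGIN1 (chr16:83952990-83953289) the window does not include the gene start given below. A match is a description of sequence and not of binding, and its relation to the changes below was not tested. GCLM and TXNRD1 were called changed, and so was NFE2L2 with 0 matches.

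Library totals ran from 73406825 to 96962135 counts, and the 9 genes together took 0.0842% to 0.0946% of them. All 10 luminal prostate markers exceeded 1 CPM (a count made comparable between libraries by its total and TMM factor), and their summed level was 4858 to 4965 CPM at 0 h, 5416 to 5452 at 12 h and 5414 to 5602 at 24 h. KRT5 and COL1A2 were not analysed here. None of the other 2 basal markers and of the 5 immune markers exceeded 1 CPM in any library. Of the 4 fibroblast markers read, 2 exceeded it, COL1A1 and LUM, with a summed level of 21.3 to 21.8 CPM at 0 h, 20.7 to 23.2 at 12 h and 20.4 to 21.2 at 24 h. Of the endothelial markers, 1 of 3 exceeded it, VWF, with a summed level of 14.8 to 17.3 CPM at 0 h, 13.5 to 15.2 at 12 h and 11.2 to 13.3 at 24 h. The part of these shifts in the results was not tested. As in any bulk library, fewer cells with a transcript and less of it per cell cannot be told apart.

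The 9 transcripts differed widely in level. Per length, as CPM per kilobase of the main annotated transcript over all 8 libraries, TXNRD1 was highest at 128 ± 9.18 (SD, n = 8), above the level of 96.7% of the 14250 protein-coding genes tested. KEAP1 followed at 50.6 ± 1.68 CPM per kilobase, then NFE2L2 at 32.0 ± 2.30 and NQO1 at 24.3 ± 0.954. GCLM was at 11.3 ± 1.26 CPM per kilobase, and the ranges of these 5 genes did not overlap one another. SRXN1 at 6.96 ± 0.569, GCLC at 6.37 ± 0.289 and HMOX1 at 5.59 ± 0.684 CPM per kilobase stood close together, and neighbours in that order overlapped. OSGIN1 was lowest at 2.72 ± 0.361 CPM per kilobase, above 35.3% of protein-coding genes. The order depends on the length used. Divided by all annotated exon bases, NFE2L2 fell behind NQO1, GCLM and SRXN1 to the sixth place at 5.22 CPM per kilobase, because its exons span 14975 bases against 2446 for the main transcript.

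**Figure D1:**
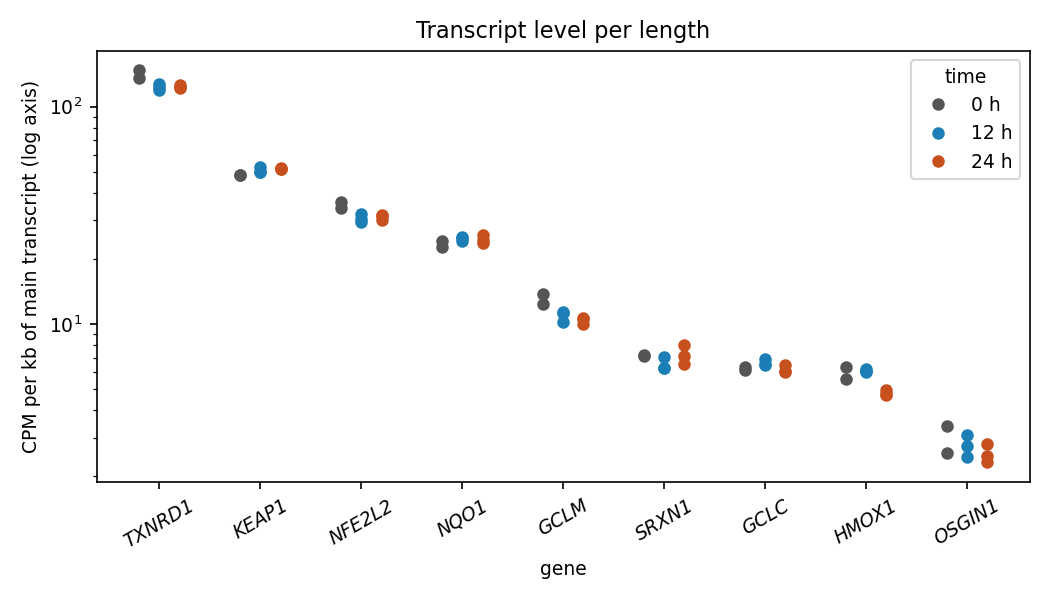
Level of each gene per length, as CPM per kilobase of the main transcript on a log axis. Each point is 1 of 8 libraries, coloured by time; TXNRD1 lies between 119 and 147, and OSGIN1 between 2.32 and 3.38.

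Between 0 h and 12 h, 3 of the 9 transcripts fell: NFE2L2, GCLM and TXNRD1. At 24 h the same 3 were below their 0 h level, and HMOX1 had also fallen. None of the 9 rose in edgeR's quasi-likelihood test at an adjusted p of 0.05, in any of the comparisons. The sizes were small: the called changes lay between 1.14-fold and 1.27-fold, and 0 of 9 reached 1.5-fold, by edgeR with or without adjustment or by DESeq2. The levels follow by role, with the regulators first.

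NFE2L2 (ENSG00000116044.16) lies at chr2:177227595-177392697 on the minus strand. Its level was 89.0 and 83.8 CPM in the 0 h libraries, 72.0, 78.1 and 74.6 CPM at 12 h and 73.9, 76.6 and 77.3 CPM at 24 h. Both 0 h libraries stood above every later library, and the 12 h and 24 h libraries overlapped. The mean was 86.4 ± 3.67 CPM (SD, n = 2) at 0 h, 74.9 ± 3.08 (n = 3) at 12 h and 75.9 ± 1.81 (n = 3) at 24 h. Relative to 0 h, the log2 level differed by -0.21 at 12 h (adjusted p = 0.00555, SE 0.0501) and by -0.19 at 24 h (adjusted p = 0.00852, SE 0.0501). The call at 12 h was lost without 0 h replicate 1 (adjusted p = 0.169), and the call at 24 h without 0 h replicate 1 (0.155) or without 24 h replicate 1 (0.0592). Of its annotated exon bases 38.4% are shared with other genes, 23.4% with HNRNPA3 on the other strand, although 7.77% of the main transcript is shared. HNRNPA3 itself had a log2 change of -0.052 at 12 h (adjusted p = 0.528) and -0.13 at 24 h (adjusted p = 0.032). Whether counting used the strand is not stated, and the part of HNRNPA3 reads in the NFE2L2 values was not tested.

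KEAP1 (ENSG00000079999.14), the adaptor that targets NRF2 for degradation, lies at chr19:10486125-10503558 on the minus strand. Its level was 123.7 and 124.5 CPM at 0 h, 135, 128.4 and 127.6 CPM at 12 h and 133.3, 132.9 and 132.6 CPM at 24 h. Every later library was above both 0 h libraries, but the difference did not pass the test. The log2 change was 0.071 at 12 h (adjusted p = 0.366) and 0.099 at 24 h (95% interval 0.0065 to 0.19, unadjusted p = 0.0367, adjusted p = 0.147). The ratio of KEAP1 to NFE2L2 per length within a library was 1.37 ± 0.0643 (SD, n = 2) at 0 h, 1.66 ± 0.115 (n = 3) at 12 h and 1.67 ± 0.0445 (n = 3) at 24 h. All 6 later libraries had a higher ratio than both 0 h libraries. The size of this ratio depends on the transcript lengths used, and no test was made of it.

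The enzyme that starts glutathione synthesis, glutamate-cysteine ligase, has a catalytic subunit encoded by GCLC and a modifier subunit encoded by GCLM. GCLM (ENSG00000023909.10, chr1:93885199-93909456, minus strand) was at 67.3 and 60.3 CPM at 0 h, 49.97, 54.91 and 55.68 CPM at 12 h and 49.1, 51.3 and 51.9 CPM at 24 h. No later library reached the 0 h libraries. The mean went from 63.8 ± 4.99 CPM (SD, n = 2) to 53.5 ± 3.10 (n = 3) and 50.7 ± 1.48 (n = 3). Relative to 0 h, the log2 level differed by -0.25 at 12 h (adjusted p = 0.0028, SE 0.0572) and by -0.33 at 24 h (adjusted p = 6.56e-05, SE 0.0572), the latter a 1.26-fold lower level. At 24 h GCLM passed the test in all 12 alternatives (adjusted p between 2.40e-07 and 0.0154), while at 12 h the call was lost without 0 h replicate 1 (adjusted p = 0.210, log2 change -0.17).

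GCLC (ENSG00000001084.13, chr6:53497341-53616970, minus strand) was at 24.0 and 23.3 CPM at 0 h, 24.4, 26.1 and 24.9 CPM at 12 h and 22.7, 23.0 and 24.4 CPM at 24 h. The 12 h libraries lay just above the 0 h libraries, and those of 24 h overlapped them. The log2 change was 0.086 at 12 h (95% interval -0.046 to 0.22, adjusted p = 0.469) and -0.018 at 24 h (95% interval -0.15 to 0.11, adjusted p = 0.906), so a fall of the size seen in GCLM at 24 h lies outside the GCLC interval. The ratio of GCLM to GCLC per length within a library was 2.09 ± 0.119 (SD, n = 2) at 0 h, 1.65 ± 0.0762 (n = 3) at 12 h and 1.68 ± 0.0409 (n = 3) at 24 h. The ratio at 0 h was 2.00 or more in both libraries and at most 1.74 later. Its size depends on the transcript lengths used, and it was not tested either.

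In the thioredoxin branch, TXNRD1 (ENSG00000198431.16, chr12:104215779-104350307, plus strand) encodes the cytosolic selenoenzyme that uses NADPH to reduce thioredoxin. Its level was 567 and 525 CPM at 0 h, 461, 493 and 476 CPM at 12 h and 468, 475 and 485 CPM at 24 h. The 0 h libraries were the highest, and the 12 h and 24 h libraries covered the same range. Both later groups differed from 0 h by a log2 change of -0.20, with adjusted p = 0.00263 at 12 h and 0.00147 at 24 h and an SE of 0.0439 each, and with -0.0013 between 12 h and 24 h (95% interval -0.082 to 0.079). Without 0 h replicate 1 the calls were lost, with adjusted p = 0.149 at 12 h and 0.0750 at 24 h.

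SRXN1 (ENSG00000271303.2, chr20:646615-653200, minus strand) encodes sulfiredoxin, which restores overoxidized peroxiredoxins. It lay between 15.9 and 20.2 CPM over the 8 libraries. All 12 h libraries were below the 0 h libraries (log2 change -0.13, 95% interval -0.29 to 0.033, adjusted p = 0.347), and those of 24 h lay on both sides (log2 change 0.014, adjusted p = 0.943). Of its exon bases 90.7% are shared with another gene on the same strand, so reads can be missing from its counts.

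HMOX1 (ENSG00000100292.18, chr22:35380361-35394214, plus strand) encodes heme oxygenase 1, which opens the heme ring and releases iron, carbon monoxide and biliverdin. It was the 1 gene of the 9 that was called between 12 h and 24 h. Its level was 8.66 and 9.88 CPM at 0 h, 9.39, 9.40 and 9.69 CPM at 12 h and 7.29, 7.41 and 7.73 CPM at 24 h. The 12 h libraries sat within the span of the 0 h libraries, and all 24 h libraries were below every other library. The log2 change was 0.036 at 12 h (95% interval -0.15 to 0.23, adjusted p = 0.870), -0.31 at 24 h against 0 h (SE 0.0931, adjusted p = 0.0194) and -0.35 at 24 h against 12 h (SE 0.0833, adjusted p = 0.0163). The call against 0 h was lost without the unnumbered 0 h library (adjusted p = 0.246, log2 change -0.21), 24 h replicate 1 (0.0727) or 24 h replicate 2 (0.0580). The call against 12 h was lost without 12 h replicate 3 (0.0860), 24 h replicate 1 (0.0986) or 24 h replicate 2 (0.0791).

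NQO1 (ENSG00000181019.13, chr16:69706996-69726668, minus strand) encodes the quinone reductase that is often read as a marker of NRF2 activity. Of its main transcript 22.8% is shared with a gene on the other strand, and whether counting used the strand is not stated. NQO1 lay between 57.1 and 64.9 CPM, and the groups overlapped. Its log2 change was 0.077 at 12 h (95% interval -0.031 to 0.18, adjusted p = 0.418) and 0.068 at 24 h (95% interval -0.040 to 0.18, adjusted p = 0.456), so an increase beyond 0.18 on the log2 scale lies outside both intervals. OSGIN1 (ENSG00000140961.14, chr16:83931311-83966332, plus strand), an oxidative stress-induced growth inhibitor, lay between 4.46 and 6.49 CPM, the widest relative range of the 9 at 1.46-fold. Its log2 change was -0.10 at 12 h (adjusted p = 0.711) and -0.22 at 24 h (95% interval -0.49 to 0.048, adjusted p = 0.298).

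**Figure D2:**
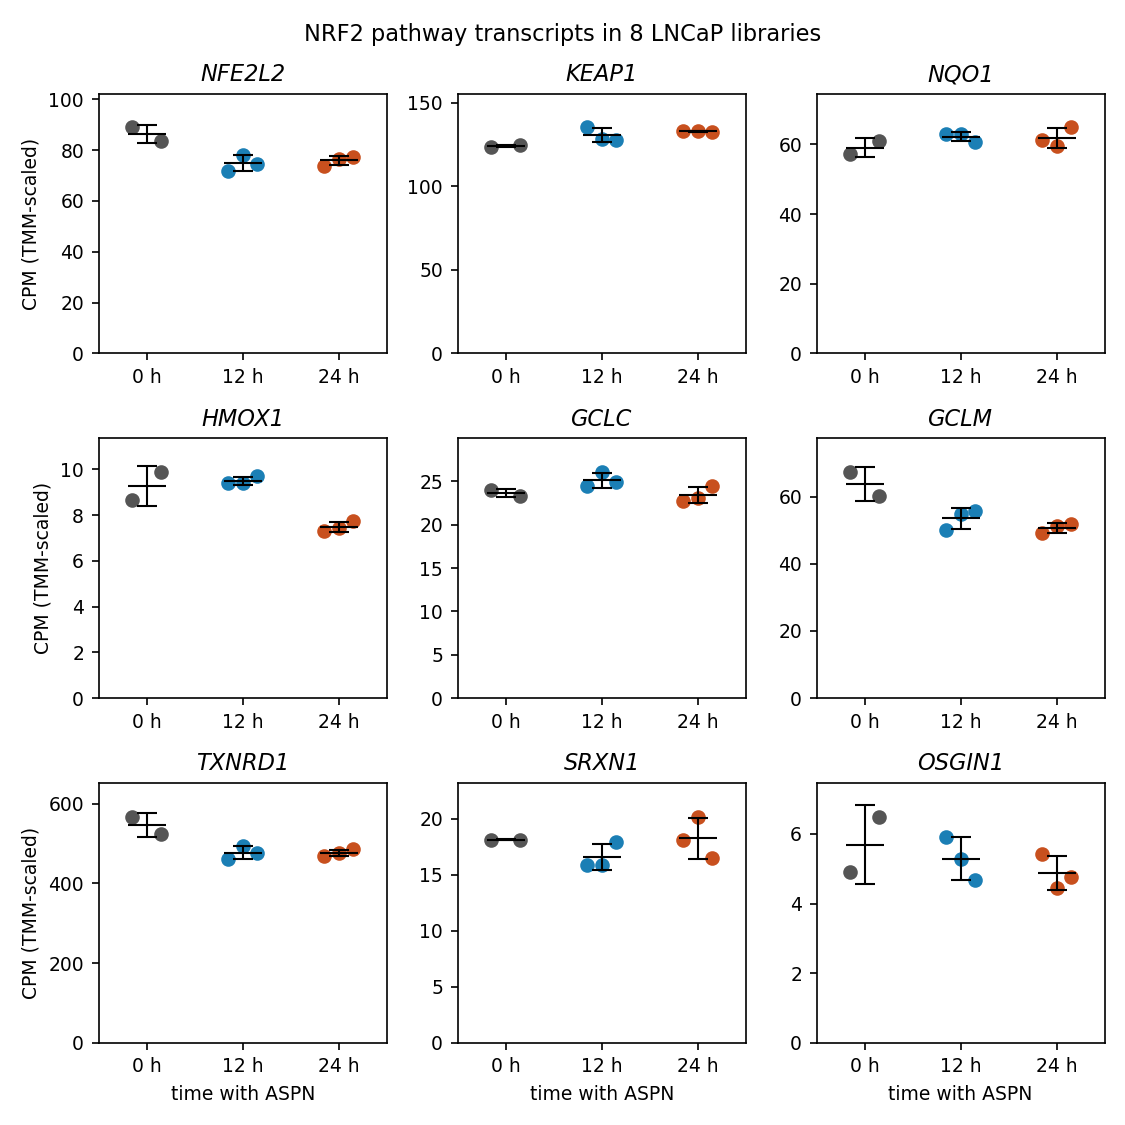
Level of the 9 transcripts in each of 8 libraries, in CPM with a linear axis from 0, against time with ASPN. Points are libraries, and lines with bars are the mean and SD of 2 libraries at 0 h and 3 at 12 h and 24 h; NFE2L2, GCLM and TXNRD1 are highest at 0 h, and HMOX1 is lowest at 24 h.

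Read against all genes, the 3 of 9 called at 12 h stand beside 11.6% of all tested genes at an adjusted p of 0.05, of which 4.85% of all genes were higher and 6.75% lower. The 4 of 9 called at 24 h stand beside 16.3%, with 7.82% higher and 8.49% lower. Between 12 h and 24 h, 1 of 9 was called beside 2.72% of all genes, with 1.12% higher and 1.61% lower. A change of at least 1.5-fold was called in 0 of 9 beside 1.05% of all genes at 12 h, 2.45% at 24 h and 0.18% between 12 h and 24 h. Groups did not overlap for 6 of 9 genes at 12 h (2 higher, 4 lower) beside 36.9% of all genes, for 5 at 24 h (1 higher, 4 lower) beside 43.2%, and for 1 between 12 h and 24 h beside 19.6%. The median log2 change of the 9 was -0.10 at 12 h and -0.19 at 24 h, where the medians of all genes were -0.00069 and -0.0031. Between 12 h and 24 h it was -0.0089 against 0.0035. The comparisons with 0 h share the same 2 libraries, so they are not independent of each other. The shares of all genes were not matched to the 9 by count level. For higher members, the counts were 0 at 12 h, 1 at 24 h and 0 between 12 h and 24 h at an unadjusted p under 0.05, and 0 in each by DESeq2 with adjustment.

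**Figure D3:**
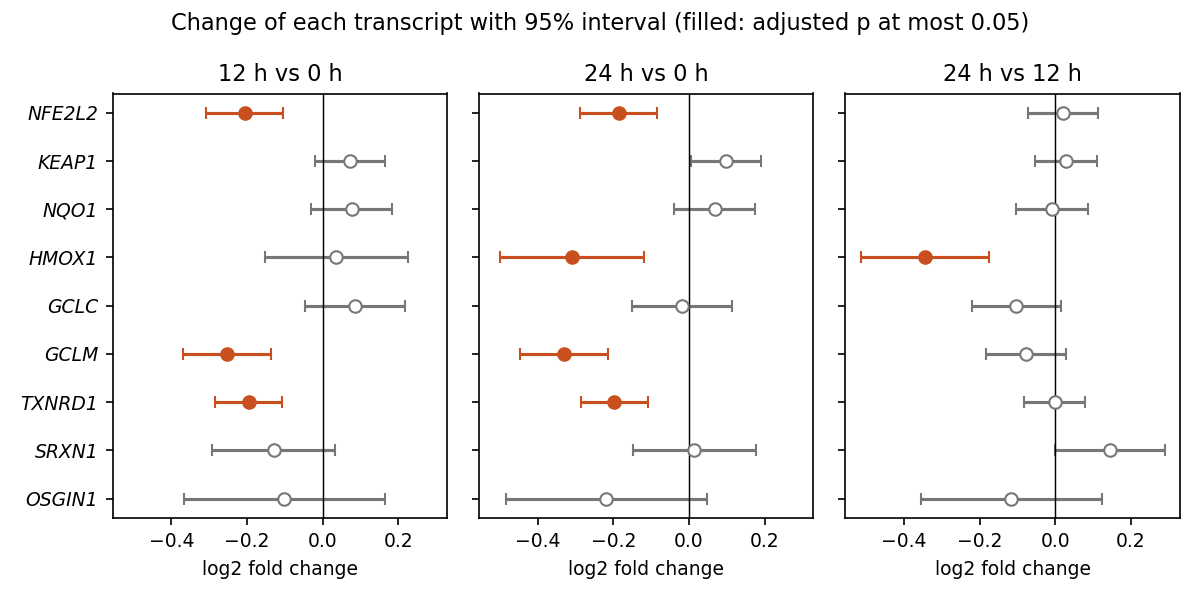
Log2 fold change of each transcript with its 95% interval in 3 panels, for 12 h and for 24 h against 0 h and for 24 h against 12 h. Filled points have an adjusted p of at most 0.05; they are NFE2L2, GCLM and TXNRD1 at 12 h, these and HMOX1 at 24 h, and HMOX1 between 12 h and 24 h.

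Over the 8 libraries, the log2 CPM of NFE2L2 and TXNRD1 had a Pearson r of 0.99, GCLM and TXNRD1 of 0.96 and NFE2L2 and GCLM of 0.92. KEAP1 ran the other way, with r = -0.94 to GCLM and -0.85 to NFE2L2. To the remaining members NFE2L2 had r = -0.60 (NQO1), 0.18 (HMOX1), -0.057 (GCLC), 0.24 (SRXN1) and 0.056 (OSGIN1). These libraries share their time points and the step after 0 h, so the values are a description. Among 12534 well-counted genes, those closest to NFE2L2 were SHOC2, a scaffold of the RAS to ERK pathway (r = 0.996), YME1L1, a mitochondrial protease (r = 0.995) and C6orf62 (r = 0.992). Those closest to HMOX1 were EEF1AKMT3, a lysine methyltransferase (r = 0.982), SETBP1 (r = 0.981) and CDC20, an activator of the anaphase-promoting complex (r = 0.973).

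The wider pathway was read from 7 lists of 125 genes, of which 117 were tested. The lists moved in both directions. They were chosen with earlier results of these data known, and the shares of all genes were not matched to them by count level. At 12 h, 24 list genes (20.5%) were called against 11.6% of all genes, 7 higher and 17 lower, and at 24 h 35 (29.9%) against 16.3%, 16 higher and 19 lower. Their median log2 change was 0.022 at 12 h and 0.030 at 24 h, and 1 gene at 12 h and 3 at 24 h passed 1.5-fold. Where a list has more than 3 called genes, the further ones are named after their values were seen. Their single values under the alternatives were not read in those comparisons. Some of their calls lay near the threshold, such as GSTO1 and EPHX2 at 24 h (edgeR adjusted p = 0.0455 and 0.0468).

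Among 15 regulators and partners of NRF2, 2 rose and 4 fell at 12 h, with a list median log2 change of 0.0073. MAFG, a small MAF partner of NRF2, fell by 0.25 on the log2 scale (adjusted p = 0.00203) and by 0.37 at 24 h (adjusted p = 4.92e-06). DPP3, a peptidase that competes with NRF2 for KEAP1, rose by 0.20 (adjusted p = 0.00645) and by 0.26 at 24 h (adjusted p = 0.000201). GSK3B, a kinase that marks NRF2 for KEAP1-independent degradation, had a log2 change of -0.18 at 12 h (adjusted p = 0.0109). The further genes at 12 h were BACH1, a repressor at antioxidant response elements (-0.23), NFE2L1 (-0.17) and RBX1, a subunit of the KEAP1 ubiquitin ligase (0.19). At 24 h 3 rose and 4 fell, with a list median of -0.046. NFE2L1, the NRF2 relative that controls proteasome genes, had a log2 change of -0.31 (adjusted p = 5.01e-06), and the further genes were SQSTM1 (0.20), NFE2L3 (0.32), BACH1 (-0.25) and GSK3B (-0.19). Of the main transcript of SQSTM1 55.7% and of NFE2L3 20% overlaps a gene on the other strand, so their values are uncertain.

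The largest log2 decrease among called list genes, at 12 h and at 24 h, was that of SLC7A11. SLC7A11, the transporter subunit that brings in cystine for glutathione, was at 677 ± 86.9 CPM (SD, n = 2) at 0 h, 446 ± 31.3 (n = 3) at 12 h and 351 ± 12.5 (n = 3) at 24 h. Relative to 0 h, its log2 level differed by -0.60 at 12 h (adjusted p = 1.91e-06, SE 0.0624) and by -0.95 at 24 h (adjusted p = 8.84e-10, SE 0.0623). SLC3A2, its heavy chain partner, had a log2 change of -0.37 (adjusted p = 1.47e-06) and -0.54 (adjusted p = 1.99e-10). CHAC1, an enzyme that degrades glutathione, had -0.35 (adjusted p = 0.000131) and -0.64 (adjusted p = 2.37e-09). Of the 26 tested glutathione genes 2 rose and 4 fell at 12 h, and 4 rose and 4 fell at 24 h, with list medians of 0.043 and 0.058. The further ones were GPX8 (-0.29), GPX4 (0.19) and GSTO1 (0.18) at 12 h, and GPX8 (-0.42), GSTK1 (0.22), GSTM3 (0.17), GGT7 (0.25) and GSTO1 (0.15) at 24 h. GSTP1, the glutathione transferase that LNCaP is known to lack, was at 0 to 0.198 CPM.

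SLC7A11, CHAC1 and SESN2 are also known targets of ATF4, the transcription factor of the amino acid and endoplasmic reticulum stress response. ATF4 itself had a log2 change of -0.16 at 12 h (adjusted p = 0.0151) and -0.30 at 24 h (adjusted p = 5.08e-06). Other ATF4 targets were lower too, DDIT3 by a log2 change of -0.47 and -0.996, TRIB3 by -0.41 and -0.80 and ASNS by -0.27 and -0.36, each with an adjusted p under 0.05. The part of ATF4 in the values of the shared genes was not tested.

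In the thioredoxin and peroxiredoxin list of 17 genes, 1 rose and 1 fell at 12 h, and 1 rose and 2 fell at 24 h, with list medians of 0.012 and 0.025. SESN2, a sestrin that restrains mTORC1, had a log2 change of -0.48 (adjusted p = 1.32e-07) and -0.75 (adjusted p = 4.18e-12). TXNRD2, the mitochondrial thioredoxin reductase, moved opposite to its cytosolic relative TXNRD1, with log2 changes of 0.24 (adjusted p = 0.00163) and 0.23 (adjusted p = 0.00139). PRDX4, the peroxiredoxin of the endoplasmic reticulum, had -0.13 at 24 h (adjusted p = 0.0414). Of 14 tested NADPH genes 3 fell at 12 h, while at 24 h 2 rose and 4 fell, with list medians of 0.035 and 0.027. NADK2, the mitochondrial NAD kinase, had log2 changes of -0.47 (adjusted p = 1.89e-07) and -0.52 (adjusted p = 6.13e-09). IDH1 had -0.38 (adjusted p = 9.90e-07) and -0.46 (adjusted p = 6.29e-09), and malic enzyme ME1 had -0.19 (adjusted p = 0.0046) and -0.24 (adjusted p = 0.000318). At 24 h the further ones included NADK, the cytosolic NAD kinase (0.16), and IDH2 (-0.16). Higher NADPH genes at 12 h numbered 0 by edgeR, 2 at an unadjusted p under 0.05 and 2 by DESeq2.

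Of 18 heme and iron genes, 1 fell at 12 h, the ferritin heavy chain gene FTH1 (log2 change -0.15, adjusted p = 0.0335), whose main transcript overlaps BEST1 on the other strand over 73.2% of its bases and which has near-identical copies, so its value is uncertain. At 24 h 3 rose: the transferrin receptor TFRC (0.16, adjusted p = 0.0119), the biliverdin reductase BLVRA (0.17, adjusted p = 0.0309) and the heme synthesis enzyme ALAD (0.19, adjusted p = 0.0345). The list medians were 0.036 and 0.049. In the quinone and aldehyde list, 2 of 23 rose and 3 fell at 12 h, and 3 rose and 4 fell at 24 h, with list medians of -0.0036 and -0.028. SLC6A6, the taurine transporter, had log2 changes of 0.40 (adjusted p = 0.00027) and 0.57 (adjusted p = 7.70e-07). ALDH3A2, a fatty aldehyde dehydrogenase, had -0.27 (adjusted p = 0.000281) and -0.25 (adjusted p = 0.000272), and UGDH, which makes UDP-glucuronate, had -0.22 (adjusted p = 0.00525) and -0.29 (adjusted p = 0.000142). The further ones were PTGR1 (0.25 and 0.22) and TRIM16 (-0.21 and -0.22) at both times, and NQO2 (-0.18) and EPHX2 (0.16) at 24 h. Of the main transcript of TRIM16 54.5% is near-identical to TRIM16L, so its value is uncertain. TRIM16L was not called (edgeR adjusted p = 0.279 at 12 h and 0.163 at 24 h). Among 4 superoxide dismutase and catalase genes SOD2, the mitochondrial enzyme, had log2 changes of -0.18 (adjusted p = 0.0359) and -0.20 (adjusted p = 0.0137), and the list medians were 0.0090 and 0.038.

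**Figure D4:**
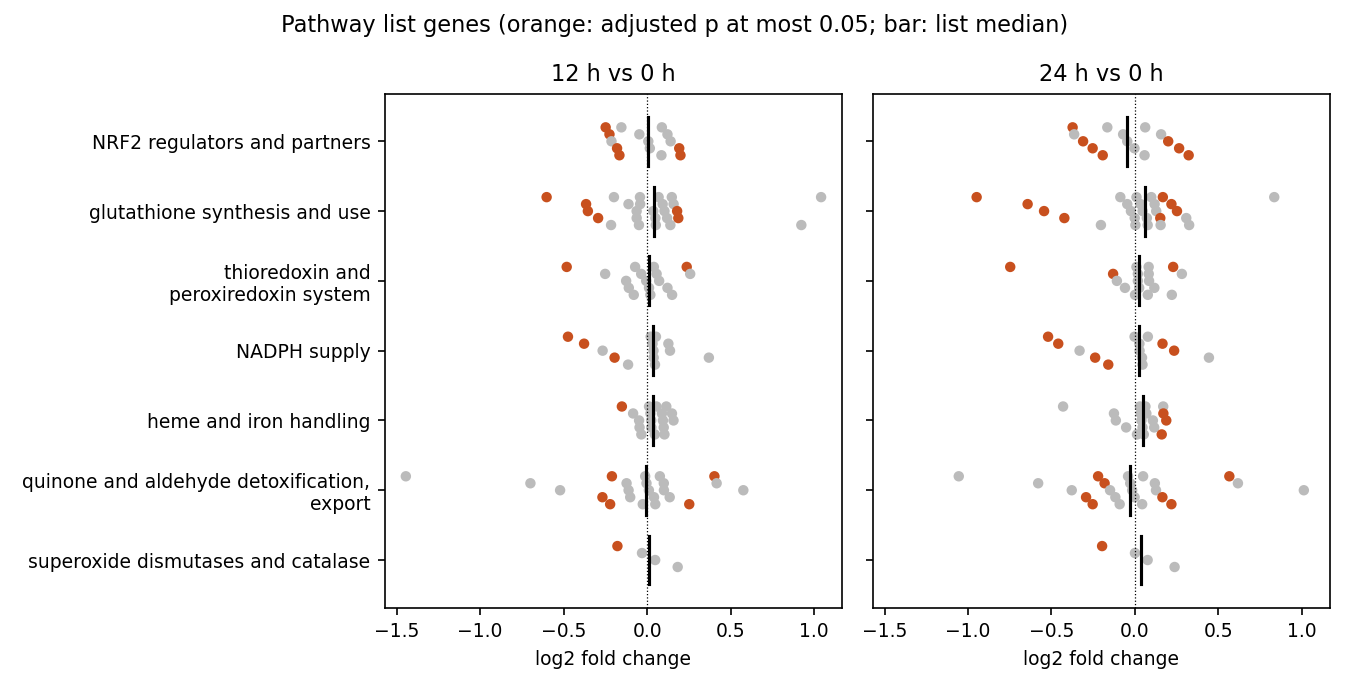
Log2 fold change of the tested genes of 7 pathway lists at 12 h and 24 h against 0 h. Each point is a gene, orange at an adjusted p of at most 0.05, and bars are list medians; the medians stay near 0 while SLC7A11, at -0.95, is the lowest orange point at 24 h.

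Between 12 h and 24 h, 9 list genes (7.69%) were called against 2.72% of all genes, 3 higher and 6 lower, with a median log2 change of -0.0014 and 0 past 1.5-fold (0 also at an unadjusted p under 0.05 and by DESeq2). The list medians lay between -0.013 for the regulators and 0.017 for the superoxide dismutases and catalase. SLC7A11 fell further (log2 change -0.35, adjusted p = 0.00139), as did CHAC1 (-0.29, adjusted p = 0.00227), SESN2 (-0.27, adjusted p = 0.000906) and SLC3A2 (-0.18, adjusted p = 0.0111). IDH2, the mitochondrial isocitrate dehydrogenase, had -0.21 (adjusted p = 0.00179) and NFE2L1 had -0.14 (adjusted p = 0.0454). SESN3 rose by 0.21 (adjusted p = 0.00909), ALAS1, the first enzyme of heme synthesis, by 0.16 (adjusted p = 0.0271) and FTH1 by 0.16 (adjusted p = 0.0292).

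Several list calls rested on single libraries or on 1 setting (adjusted p of edgeR's test in parentheses). At 12 h those of DPP3, GSK3B, TXNRD2, ME1, FTH1, UGDH and SOD2 were lost without 0 h replicate 1 (adjusted p between 0.0972 for TXNRD2 and 0.494 for FTH1), FTH1 also without 12 h replicate 1 (0.152), and SOD2 without 12 h replicate 1 (0.136) or 3 (0.150). GSK3B (0.0503), FTH1 (0.103) and SOD2 (0.0940) also lost theirs when the 12 h and 0 h libraries were fitted alone, and FTH1 (0.0555) and SOD2 (0.0516) with upper-quartile factors. With the column number as a replicate block, the calls of FTH1 at 12 h (0.0535) and of PRDX4 (0.0820), TFRC (0.0652), BLVRA (0.111) and ALAD (0.0623) at 24 h were lost. At 24 h that of PRDX4 was lost with upper-quartile factors (0.0515) and with no low-count filter (0.0871). At 24 h those of TXNRD2 (0.0785), PRDX4 (0.267), BLVRA (0.334), ALAD (0.199) and SOD2 (0.209) were lost without 0 h replicate 1, and those of TFRC (0.0780) and ALAD (0.0790) without the unnumbered 0 h library. Leaving out 24 h replicate 1 ended the calls of PRDX4 (0.213), BLVRA (0.0702), ALAD (0.135) and SOD2 (0.0528), leaving out 24 h replicate 2 those of BLVRA (0.106) and ALAD (0.0904), and leaving out 24 h replicate 3 those of PRDX4 (0.115), TFRC (0.0561), BLVRA (0.0784) and SOD2 (0.0634). Between 12 h and 24 h, the call of SLC7A11 was lost without 12 h replicate 1 (0.109), and NFE2L1, SLC3A2, SESN3, ALAS1 and FTH1 each lost theirs in 3 or more of the 6 such fits (adjusted p up to 0.257). MAFG, NADK2, IDH1, SLC6A6 and ALDH3A2 kept their calls against 0 h in all 12 alternatives, and so did SLC7A11, SLC3A2, CHAC1 and SESN2.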

How the data were processed

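The authors trimmed reads with Cutadapt, aligned them to GRCh38 with STAR and made raw counts per GENCODE gene with featureCounts, and the deposited counts are not normalized. The strand and multi-mapping options are not given in the sources used here, and 1 time-0 library was left out by the authors for quality.

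Counts of all 8 libraries were tested together in edgeR 4.0.16 (R 4.3.3) with the quasi-likelihood test, TMM factors and the filterByExpr filter, and p-values were adjusted by Benjamini-Hochberg over 21071 genes. Calls used an adjusted p of 0.05, and the study's added threshold of 1.5-fold was counted separately. SE and intervals (95%) belong to log2 fold changes. A count of 0 allows 0.0309 to 0.0409 CPM (3 counts, counting error only). Pairs of replicates differed beyond sampling noise (chi-square per degree of freedom 5.32 to 15.2). The fit was tested on simulated data with changes placed at 24 h. The members and lists were chosen with earlier results of these data known. Named list genes are the 3 with the smallest p per list and comparison. Alternatives were DESeq2 1.42.0, other size factors, no filter, the compared times alone, the replicate block and leaving out each library. Lengths and overlaps came from GENCODE release 44. The values of 1 list gene are not reported here.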

Additional observations from a re-analysis of the deposited data

Results flagged for a closer look

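HMOX1 differed between the later time points. Its change from 0 h at 24 h was below its change at 12 h by 0.35 on the log2 scale, a log2 difference of -0.35 (edgeR quasi-likelihood test, adjusted p = 0.0163), and all 3 libraries at 24 h lay below all 3 at 12 h. Over the 13 alternatives the adjusted p ran from 0.00602 to 0.0986, and the call was lost without 12 h replicate 3, 24 h replicate 1 or 24 h replicate 2. With 2 or 3 libraries a group, no library was screened for standing apart from its group.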

How the results depend on the processing

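Under DESeq2, other size factors, no low-count filter and the compared times alone, the counts of called members (3 at 12 h, 4 at 24 h, 1 between 12 h and 24 h) and of list genes stayed within 1.5 times, and DESeq2 called 3, 4 and 1 members. With single libraries left out, called members ranged from 0 to 3 at 12 h, 2 to 4 at 24 h and 0 to 1 between 12 h and 24 h, and list genes from 9 to 31, 16 to 32 and 4 to 12. Leaving out a 0 h library leaves 1 there, assumed to vary like the other groups. Of 333 member values under alternatives, 312 kept direction and side of the threshold, 12 lost the call, 0 gained it and 9, none called, changed sign. Most of the 333 belong to comparisons not called in the main fit, which had no call to lose. Log2 changes that changed sign ranged, with single libraries left out, at 12 h from -0.057 to 0.14 for HMOX1 and -0.30 to 0.12 for OSGIN1, at 24 h from -0.050 to 0.0033 for GCLC and -0.063 to 0.078 for SRXN1, and between 12 h and 24 h from -0.014 to 0.051 for NFE2L2, -0.044 to 0.013 for NQO1 and -0.031 to 0.023 for TXNRD1. Fewer libraries were fitted in each of these, and no further cause was tested.

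Against 0 h no block on the numbers of the titles could be fitted, because a 0 h column matches no title. A replicate block on the numbers in the column names (1 and 3 at 0 h), chosen after seeing the data, gave 3 called members and 22 list genes at 12 h and 4 and 26 at 24 h, and SRXN1 at 24 h changed sign (-0.011). Between 12 h and 24 h the replicate block gave 1 called member and 12 list genes, against 1 and 9 without it. Deviations of same-numbered libraries correlated at 0.106, 0.0286 and 0.0262 over 13467 genes. Differently numbered pairs ran from -0.0828 to 0.0558, the latter for 12 h replicate 2 with 24 h replicate 3. Deviations from a group mean depend on one another, so these values cannot decide whether same-numbered libraries were paired.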
